A study of Arabidopsis thaliana with 6 samples.

Results

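The values of 10 genes of auxin transport in Arabidopsis thaliana are described: the ABCB carrier genes ABCB1 (AT2G36910), ABCB4 (AT2G47000) and ABCB19 (AT3G28860), the PILS carrier genes PILS2 (AT1G71090), PILS3 (AT1G76520) and PILS5 (AT2G17500), and the protein kinase genes PID (AT2G34650), WAG1 (AT1G53700), WAG2 (AT3G14370) and D6PK (AT5G55910). They were taken as a list of loci, by their place in auxin transport, and all 10 are among the 20423 genes measured. The experiment asked how the root transcriptome responds late to auxin. Wild-type Col-0 seedlings, 3 days after germination, were kept for 6 h in liquid 1/2 MS (Murashige and Skoog) medium containing the auxin IAA (indole-3-acetic acid) at 1 µM, and control seedlings of the same genotype and age spent the same 6 h in that medium without IAA. The labels give 3 root samples per group, each a pool of about 100 roots, so that values of single cell types or single plants were not measured. RNA depleted of ribosomal RNA was sequenced on the SOLiD platform, and for each gene the authors' mean normalized read count in IAA-treated roots and in control roots was examined.

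Auxin moves from cell to cell through carriers in the plasma membrane. ABCB carriers pump auxin across it with energy from ATP and usually without strong polarity, whereas PIN carriers are polar and set the direction of flow. PILS carriers resemble PIN proteins in structure but sit in the membrane of the endoplasmic reticulum, where they draw auxin away from nuclear perception. The AGCVIII kinases PID, WAG1, WAG2 and D6PK phosphorylate the cytosolic loop of PIN carriers, which sets PIN activity and, for PID and the WAG kinases, the side of the cell on which PIN proteins reside.

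Only 1 mean per group was used, so no spread between samples can be given and no test between the groups was possible. The low means in each group were whole multiples of a pair of step sizes or sums of such multiples, 0.367 and 0.426 in IAA-treated roots and 0.59 and 0.634 in control roots. Their averages, 0.396 and 0.612, were taken as the worth of 1 read, and the reads behind each mean were counted with them. The 95% intervals given with the ratios are exact intervals on those reads. They cover counting error only, not the difference between plants or cultures, and reads amplified by PCR are not independent molecules. The step sizes did not settle how many of the 3 labelled samples stand behind each mean. The means summed to 873654 in IAA-treated roots and 919275 in control roots, which corresponds to about 2206000 reads in IAA-treated and 1503000 in control roots. These are reads counted in genes, as inferred from the step sizes, and not the sequencing depth. The paper gives a much larger number of high-quality reads for each sample. All 9 root markers examined were listed above 0 in both groups. Among them the mean of COBL9 (SHV2), a root hair gene, was 0.43 in IAA-treated and 20.9 in control roots, and that of CASP1, of the endodermal Casparian strip, was 12.3 in IAA-treated and 59.8 in control roots. WER (MYB66) was also lower, with 2.01 in IAA-treated and 9.11 in control roots, on about 5 and 15 reads. Others were higher after IAA. SMB, of the root cap, had 14.8 in IAA-treated and 2.45 in control roots, on about 37 and 4 reads. WOX5, of the quiescent centre, had 15.3 in IAA-treated and 3.67 in control roots, on about 39 and 6 reads. The averages of both means of WER, SMB and WOX5 were only 5.56, 8.6 and 9.5. SCR, of the endodermis, had 37.6 in IAA-treated and 30.9 in control roots. The 95% intervals of the ratios of SCR, SHR, GL2 and PLT1 include 1. The 6 photosynthesis genes examined as shoot markers summed to 77 in IAA-treated and 249.5 in control roots, each being lower after IAA. In RNA of pooled roots, fewer cells of a type and less RNA per cell cannot be told apart, and the part of these markers in the values of the 10 genes was not tested.

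The 10 genes did not share a direction or a size of difference. PID had a mean 11.9-fold higher in IAA-treated roots, the ABCB genes had means 1.52-fold to 1.71-fold higher, PILS5 and D6PK lay closer to equality, and PILS2, WAG1 and WAG2 had lower means after IAA. Of the 10 genes, 7 had an average of both means of at least 10. Of these 7, PID alone was at least 2-fold higher and PILS2 alone at least 2-fold lower. PID, with a control mean of 3.76, reached an average of 10 only through its IAA mean. Over all 11139 genes with such an average, 13.0% were at least 2-fold higher and 11.1% at least 2-fold lower, so that 1 gene in each direction is close to the share in the table as a whole. At 1.5-fold, 4 of the 7 were higher (PID, ABCB1, ABCB4 and ABCB19), against 23.6% of all these genes, and 1 was lower, against 21.9%. The other 3 genes, PILS3, WAG1 and WAG2, had averages of 6.8, 1.37 and 8.69. The median log2 ratio was 0.60 over the 7 genes with an average of at least 10. Over all genes with such an average it was -0.01, with quartiles of -0.50 and 0.54. Without this filter, the median was 0.50 over all 10 genes and -0.003 over all genes with a finite ratio above 0.

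**Figure D1:**
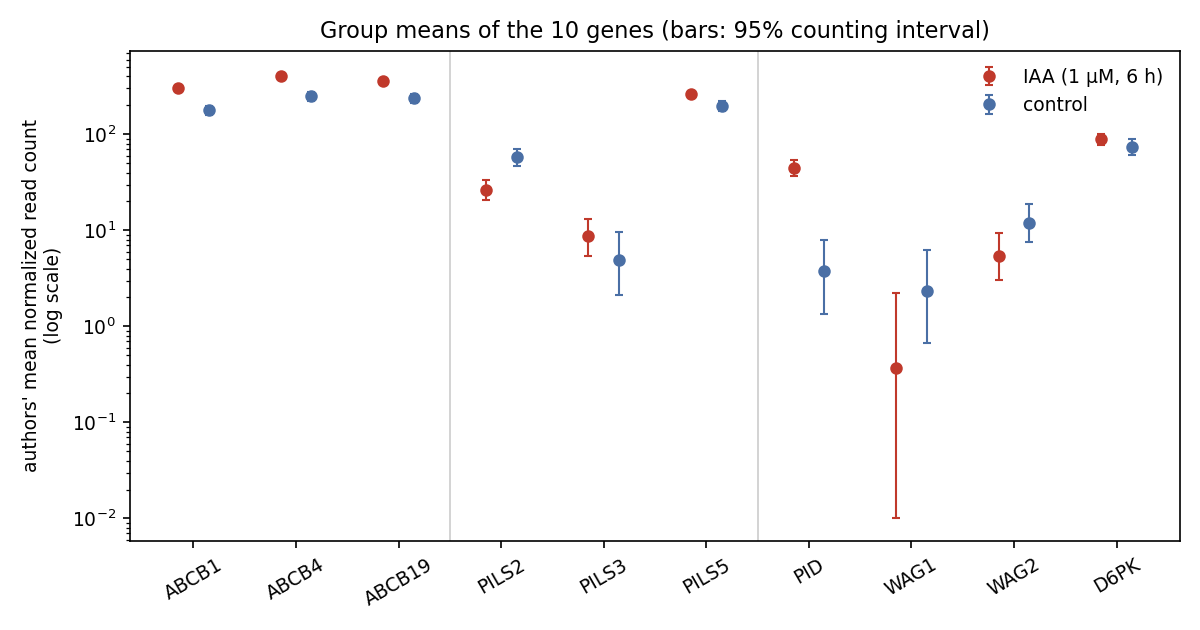
Authors' mean normalized read count (log scale) of each of the 10 genes in IAA-treated roots (red) and control roots (blue), with bars for the 95% counting interval of each mean. The intervals of PID are far apart, 36.9 to 53.8 in IAA-treated roots and 1.35 to 7.99 in control roots, whereas those of PILS3, WAG1, WAG2 and D6PK overlap.

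**Figure D2:**
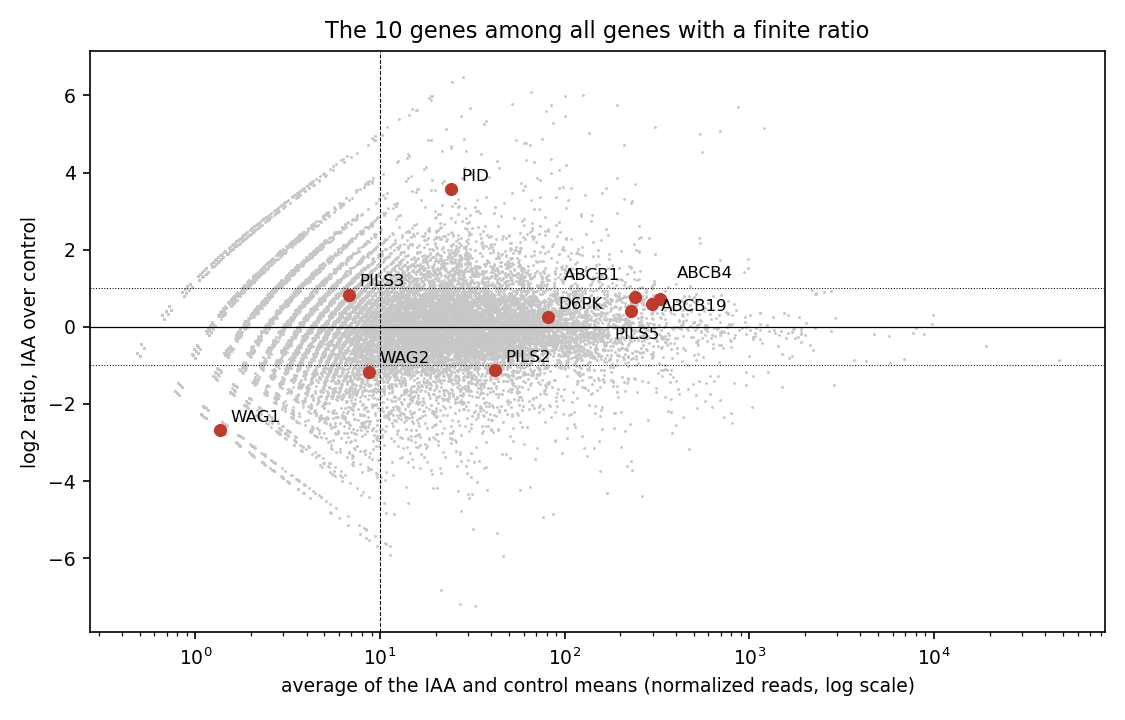
Log2 ratio of the IAA mean over the control mean against the average of both means (log scale) for all genes with a finite ratio above 0 (grey) and the 10 genes (red), with dotted lines at 2-fold and a dashed line at an average of 10. PID, at an average of 24.2, lies above most of the grey points, the ABCB carriers and PILS5 lie above 0 among the more abundant genes, and WAG1, at an average of 1.37, lies where single reads set the ratio.

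Sequences upstream of the genes were examined for the auxin response element, to which auxin response factors bind. Its core, TGTC, was searched on both strands in the 300 bases before each annotated start, and was present in 80.8% of 27444 protein-coding genes of the genome, with a median of 2 matches. The windows of PID and PILS2, the genes past 2-fold with an average of at least 10, are shown. They come from the TAIR10.1 genome of NCBI RefSeq, 5′ to 3′ on the strand of the gene, with TGTC and its reverse complement GACA in capitals. The window of PID lies at chr2:14592141-14592440 on the minus strand and that of PILS2 at chr1:26811856-26812155 on the plus strand.
PID: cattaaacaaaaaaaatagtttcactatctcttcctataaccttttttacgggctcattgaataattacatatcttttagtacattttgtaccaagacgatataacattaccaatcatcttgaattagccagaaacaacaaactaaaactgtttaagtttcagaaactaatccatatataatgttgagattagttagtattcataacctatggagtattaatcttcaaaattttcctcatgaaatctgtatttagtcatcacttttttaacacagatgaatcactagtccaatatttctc
PILS2: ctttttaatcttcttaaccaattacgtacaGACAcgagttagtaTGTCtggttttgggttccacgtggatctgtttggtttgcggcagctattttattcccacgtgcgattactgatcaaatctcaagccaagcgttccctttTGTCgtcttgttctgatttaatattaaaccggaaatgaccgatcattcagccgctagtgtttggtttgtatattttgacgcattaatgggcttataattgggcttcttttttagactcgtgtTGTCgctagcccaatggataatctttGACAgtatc
The window of PID, the gene with the highest ratio, holds 0 matches, as do those of 19.2% of genes, PILS5 and WAG1 included. The window of PILS2, lower after IAA, holds 5, and 4.39% of genes hold as many or more. Of the other genes, ABCB19 and D6PK hold 2 matches and ABCB1, ABCB4, PILS3 and WAG2 hold 1. The full element TGTCTC, which contains the core and was likewise searched on both strands, lies 7 bases before the start of ABCB19 and in no other of these windows, and 13.0% of genes have it there. In 1000 bases, the variant TGTCGG lies at -362 bases from the start of ABCB1, at -988 from that of PILS5, at -425 from that of WAG1 and at -497 from that of WAG2, and 14.6% of genes have it. TGTCTC is in the 1000 bases of ABCB19 alone among the 10 genes, and 39.6% of all genes have it there. A match describes letters only, and no binding was measured.

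The transcripts of the 10 genes are distinct: of all 60-base words in the exons of each of the 10 genes, 60 bases being the read length, 100% occur once in TAIR10.1, so uniquely mapped reads without mismatches could be told apart between relatives.

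The ABCB carriers were high in both groups and had similar ratios. ABCB1, a plasma membrane auxin exporter (chromosome 2, 15501726 to 15507501, plus strand, 10 exon blocks), had a mean of 302.5 in IAA-treated roots and 177.1 in control roots. ABCB4, which acts mainly in the root epidermis and its hairs (chromosome 2, 19309643 to 19315343, minus strand), had 409 in IAA-treated roots and 249 in control roots. ABCB19, which shares much of its role with ABCB1 and is a carrier of long-distance auxin flow (chromosome 3, 10870005 to 10877578, minus strand), had 359.7 in IAA-treated roots and 237 in control roots. The 3 ratios were close to one another. ABCB1 was 1.71-fold higher (95% counting interval 1.49 to 1.97), ABCB4 1.65-fold (1.47 to 1.85) and ABCB19 1.52-fold (1.34 to 1.71), and the intervals overlap one another and all lie above 1. About 764, 1033 and 908 reads in IAA-treated roots and 289, 406 and 388 reads in control roots stand behind these means. Ratios of this size are common: 17.7%, 19.2% and 23.1% of the 11139 genes had a ratio at least as high as ABCB1, ABCB4 and ABCB19. ABCB4 shares 31 exonic bases with an annotated gene on its own strand (AT2G46995) and 152 with a long non-coding RNA on the other strand (AT2G09775), and the strand setting of the counting is not given in the sources used here.

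The remainder of the ABCB family did not follow these 3 genes in a common direction. Of 18 further loci annotated as ABCB genes, 17 were in the table and 6 had an average of at least 10. Of these, 2 were at least 2-fold higher, 1 was at least 2-fold lower and 3 lay between, with a median log2 ratio of -0.16. Over all 11139 genes with such an average, the shares were 13.0% higher and 11.1% lower. The tandem neighbours ABCB11 and ABCB12 (chromosome 1, 523536 to 534677) had the highest ratios of the 6. ABCB11 had 79.4 in IAA-treated and 25.5 in control roots, 3.12-fold higher (2.21 to 4.43), and ABCB12 had 22.3 in IAA-treated and 7.3 in control roots, 3.05-fold higher (1.60 to 6.19). ABCB12 reached an average of 10 only through its IAA mean. Of the 60-base words in the exons of ABCB11 and ABCB12, 96.6% and 96.5% occur once in the genome, so reads from the remainder could not be assigned to one of the pair.

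ABCB15 lay at the other end, with 8.59 in IAA-treated roots and 28 in control roots, 3.26-fold lower (1.90 to 5.64). ABCB15 reached an average of 10 only through its control mean. It belongs to a group of 5 ABCB genes within 57.9 kb of chromosome 3 (10593690 to 10651540). Its neighbours were near or at 0 after IAA: ABCB16, ABCB17 and ABCB18 were listed at 0 in IAA-treated roots and at 1.27, 3.72 and 2.54 in control roots, and ABCB22 was at 0.85 in IAA-treated and 1.27 in control roots. This was not particular to the group. Of the 17 further ABCB genes, 5 were at 0 in IAA-treated roots, ABCB3 and ABCB5 of chromosome 4 included, and 2 in control roots. Over all 20423 genes, 986 were at 0 in IAA-treated roots and 1201 in control roots. ABCB3 and ABCB5 had 3.04 and 2.54 in control roots, on about 5 and 4 reads. The means of the 5 genes of the chromosome 3 group summed to 9.44 in IAA-treated and 36.8 in control roots, on about 24 and 60 reads. Of these reads, ABCB15 alone had about 22 and 46. In control roots ABCB16, ABCB17 and ABCB18 had about 2, 6 and 4 reads, and ABCB17 shares 920 exonic bases with a gene on the opposite strand (AT3G28370). No loss across the family can be read from values this close to the floor. ABCB21, a carrier close to ABCB4 in sequence, had 11.2 in IAA-treated roots and 22.3 in control roots, 1.99-fold lower.

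Set per kb of exon, so that genes of different length can be compared, ABCB1, ABCB4 and ABCB19 had levels of 63.7, 81 and 83 normalized reads per kb in IAA-treated roots and 37.3, 49.3 and 54.8 in control roots. The levels of ABCB19 and ABCB4 overlap in their counting intervals in both groups, and that of ABCB1 was the lowest of the 3 in both. These genes dominate their family: they held 83.5% of the summed level per kb of the 20 ABCB genes in the table in IAA-treated roots and 77.5% in control roots.

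**Figure D3:**
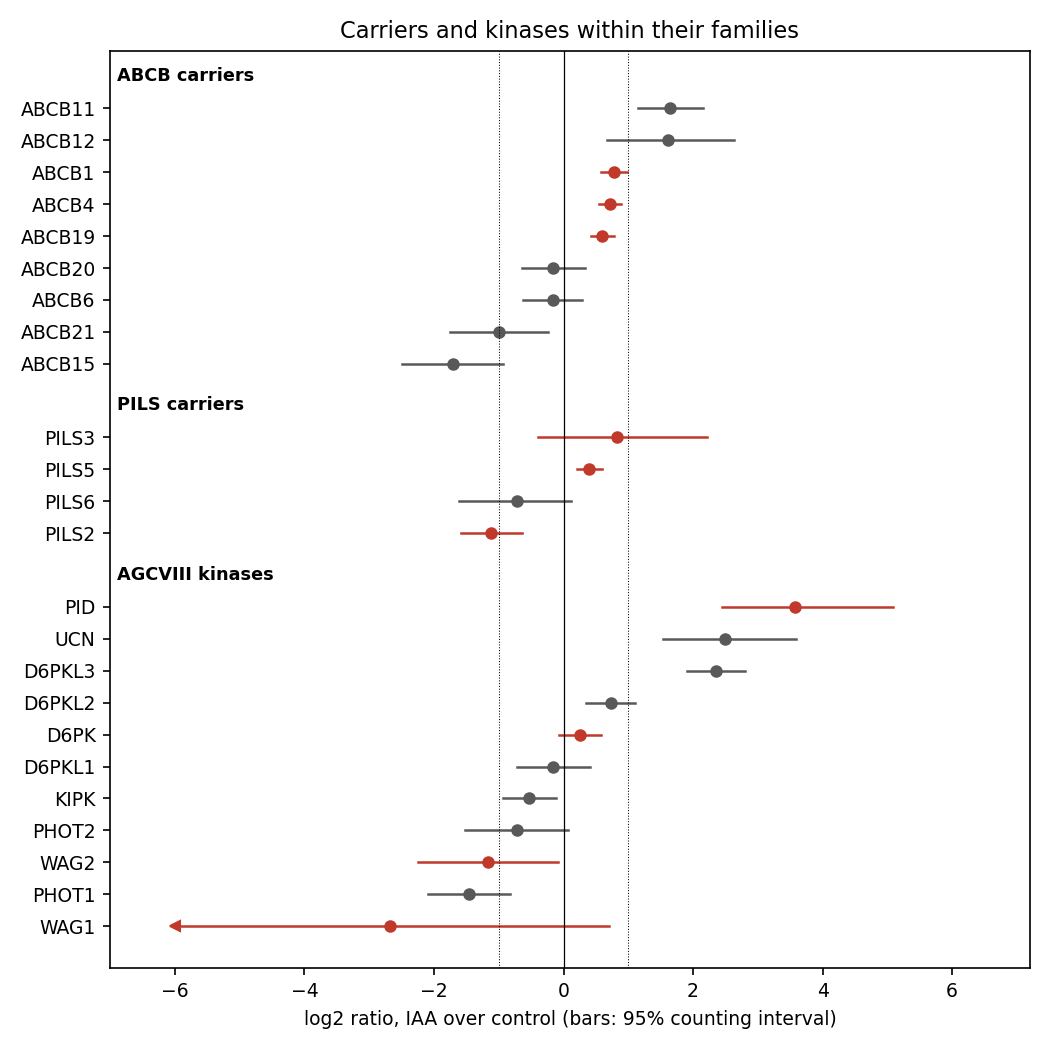
Log2 ratio of the IAA mean over the control mean for the 10 genes (red) and for further members of their families with an average mean of at least 10 (grey), with bars for the 95% counting interval and dotted lines at 2-fold. ABCB1, ABCB4 and ABCB19 lie between 0.60 and 0.77 while the family runs from -1.71 (ABCB15) to 1.64 (ABCB11), and among the kinases PID at 3.57 stands above UCN at 2.49 and D6PKL3 at 2.35 (the arrow marks the bar of WAG1, which runs on beyond the axis).

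Among the PILS carriers, PILS5 and PILS2 lay on opposite sides of equality. PILS5 (chromosome 2, 7606728 to 7609278, plus strand, 10 exon blocks) had 259.9 in IAA-treated roots and 197.2 in control roots, 1.32-fold higher (1.15 to 1.51). PILS2, an intronless gene (chromosome 1, 26812156 to 26814173, plus strand, 1 exon block), had 26.5 in IAA-treated roots and 57.8 in control roots, 2.18-fold lower (1.57 to 3.01). These carriers act together in limiting auxin response in roots, yet their counting intervals exclude equality in opposite directions. From the lowest ratio upward, PILS2 ranked number 1013 of the 11139 genes, and 9.09% had a ratio at least as low. PILS3 (chromosome 1, 28714765 to 28717910, plus strand, 9 exon blocks), another carrier of the endoplasmic reticulum, had 8.71 in IAA-treated roots and 4.89 in control roots, on about 22 and 8 reads. Its ratio of 1.78 has an interval of 0.763 to 4.62, so a difference in either direction was not detectable at this depth.

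Within the family, PILS5 prevailed in both groups. Its level was 146 normalized reads per kb of exon in IAA-treated roots and 111 in control roots, the highest of the 10 genes in each. That of PILS2 was 13.1 in IAA-treated roots and 28.6 in control roots, so that the level of PILS5 over that of PILS2 was 11.1 after IAA and 3.87 in control roots. PILS5 held 86.7% of the summed level of the 5 PILS genes in the table in IAA-treated roots and 73.2% in control roots, and PILS2 held 7.78% in IAA-treated roots and 18.9% in control roots. Of 4 further PILS genes listed, 2 were in the table. PILS6 had 9.69 in IAA-treated and 16 in control roots, PILS7 had 0.43 in IAA-treated and 1.27 in control roots. The other 2 are PILS1 and PILS4, of which PILS4 is the tandem neighbour of PILS3. PILS5 shares 43 exonic bases with a gene on the opposite strand (AT2G17510).

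PID was the gene with the widest difference. PINOID, its product, moves PIN proteins toward the shootward side of the cell when it is abundant. The gene (chromosome 2, 14589736 to 14592140, minus strand, 2 exon blocks) had a mean of 44.7 in IAA-treated roots and 3.76 in control roots, an 11.9-fold higher value after IAA (5.43 to 33.9) and 3.57 on the log2 scale. PID ranked number 90 by ratio among the 11139 genes, within the upper 0.808%. It belongs to these genes only through its IAA mean, so the rank describes its place and lends the difference no further support. About 113 reads stand behind the IAA mean and 6 behind the control mean, where the step sizes split them into 1 and 5 reads, so the width of the interval comes mainly from the control group.

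The other 3 kinases did not share this difference. WAG1 and WAG2, intronless relatives of PID that act with it on PIN polarity and restrain root waving, had lower means after IAA at very low levels. WAG2 (chromosome 3, 4797828 to 4799612, minus strand) had 5.37 in IAA-treated roots and 12 in control roots, 2.24-fold lower with an interval of 1.06 to 4.72 on about 14 reads in IAA-treated and 20 in control roots. WAG1 (chromosome 1, 20048434 to 20050294, plus strand) had 0.37 in IAA-treated roots and 2.36 in control roots, which is about 1 read in IAA-treated roots and 4 in control roots. The inverse ratio of WAG1, 6.38, has an interval of 0.611 to 304.3, so no direction can be read from it. D6PK, which activates PIN transport at the rootward side of the cell (chromosome 5, 22639813 to 22642414, minus strand, 3 exon blocks), had 88.5 in IAA-treated roots and 74.1 in control roots, a ratio of 1.19 (0.952 to 1.5). The intervals of PID and D6PK do not overlap, nor do those of PID and WAG2.

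The order of the kinases by level differed between the groups. Per kb of exon, D6PK had 36.8 normalized reads in IAA-treated roots and 30.8 in control roots, and PID had 21.3 in IAA-treated roots and 1.79 in control roots. WAG2 had 3.01 after IAA and 6.73 in control roots, and WAG1 had 0.199 after IAA and 1.27 in control roots. The level of D6PK was 1.73-fold that of PID after IAA and 17.2-fold in control roots, and the level of PID over that of WAG2 was 7.07 after IAA and 0.266 in control roots. Among the 10 genes, PID ranked number 6 by level per kb in IAA-treated roots and number 9 in control roots, where its counting interval overlaps those of its neighbours PILS3 and WAG1. Of the 9 pairs of neighbours in this order, 2 overlapped in IAA-treated roots (ABCB19 with ABCB4, PILS3 with WAG2), and 5 did in control roots, where fewer reads were counted.

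**Figure D4:**
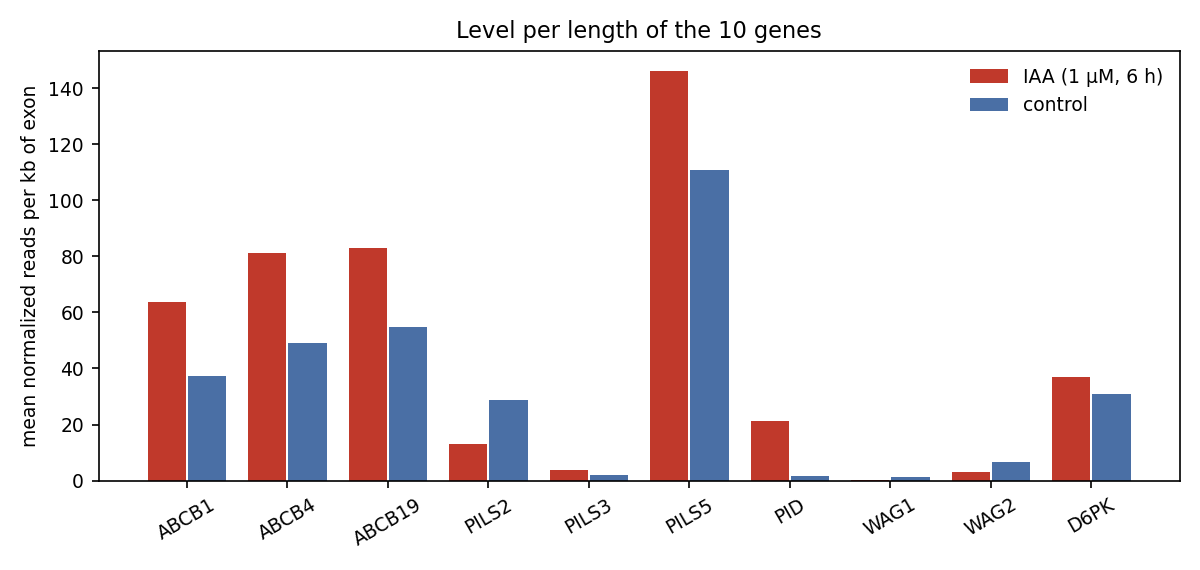
Authors' mean normalized reads per kb of exon for the 10 genes in IAA-treated roots (red) and control roots (blue). PILS5 is the highest in both groups, with 146 in IAA-treated and 111 in control roots, the ABCB carriers follow, and PID reaches 21.3 in IAA-treated roots against 1.79 in control roots.

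Further AGCVIII kinases, named for their place in the AGC group, were examined for comparison. Of 11 such genes 7 had an average of at least 10, of which 2 were at least 2-fold higher, 1 was at least 2-fold lower and 4 lay between, with a median log2 ratio of -0.17. Over all 11139 genes with such an average, the shares were 13.0% higher and 11.1% lower. D6PKL3, a close relative of D6PK, had 151.3 in IAA-treated roots and 29.7 in control roots, 5.09-fold higher (3.74 to 6.94), and its interval lies above that of D6PK, which ended at 1.5. The other relatives were nearer to D6PK: D6PKL2 had 81.5 in IAA-treated and 49.3 in control roots, 1.65-fold higher (1.27 to 2.16), and D6PKL1 had 25.6 in IAA-treated and 28.8 in control roots, a ratio of 0.890. UCN, a kinase that restrains growth of the ovule integuments, had 34 in IAA-treated roots and 6.07 in control roots, 5.61-fold higher (2.89 to 12). UCN reached an average of 10 only through its IAA mean. PHOT1, a blue light receptor of the same kinase class, had 13.8 in IAA-treated roots and 37.9 in control roots, 2.75-fold lower (1.78 to 4.27). PHOT1 thus lay on the same side as the 6 photosynthesis genes, and a link between them was not tested. The level per kb summed over these kinases, 15 with the 4 described, was 210.3 in IAA-treated roots, of which PID held 21.3, and 122.9 in control roots, of which PID held 1.79. D6PK held 17.5% in IAA-treated roots and 25.1% in control roots.

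Proteins that work with or against the kinases and ABCB carriers gave a mixed picture around PID. Of 15 such genes 14 had an average of at least 10, of which 4 were at least 2-fold higher, 0 were at least 2-fold lower and 10 lay between, with a median log2 ratio of 0.17. Over all 11139 genes with such an average, the shares were 13.0% higher and 11.1% lower. PBP1, a calcium-binding protein that binds PID, had 46.4 in IAA-treated roots and 1.86 in control roots, on about 117 and 3 reads, a ratio of 24.9 (8.43 to 124). PBP1 reached an average of 10 only through its IAA mean. TCH3, a calmodulin-like protein that also binds PID, had 86.8 in IAA-treated roots and 38.4 in control roots, 2.26-fold higher, although it shares 726 exonic bases with a gene on the opposite strand (AT2G41105). Of the NPY proteins, which act with PID in organ formation, NPY5 had 312.6 in IAA-treated roots and 121.3 in control roots, 2.58-fold higher (2.20 to 3.03), and NPY2 had 44.3 in IAA-treated and 20 in control roots, 2.22-fold higher. Of the other NPY genes, NPY1 had a ratio of 1.02, NPY4 of 0.883 and NPY3 of 1.58, each with a counting interval that includes 1. The phosphatase subunits that oppose PID lay close to equality. RCN1 had 93.4 in IAA-treated and 80.3 in control roots, PP2AA2 had 57.7 in IAA-treated and 59.7 in control roots, and FYPP1 had 43.2 in IAA-treated and 33 in control roots. PDK1, a kinase that activates AGC kinases, had 19.5 in IAA-treated and 17.9 in control roots. The mean of TWD1, the immunophilin that ABCB1 and ABCB19 need to reach the plasma membrane, was 12.9 in IAA-treated and 14.1 in control roots, while that of ABCB1 itself was 1.71-fold higher.

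The PIN carriers, substrates of the kinases, were also set beside them. Of 7 PIN genes listed, 5 were in the table and 3 had an average of at least 10, of which 2 were at least 2-fold higher, 0 were at least 2-fold lower and 1 lay between. Over all 11139 genes with such an average, the shares were 13.0% higher and 11.1% lower. PIN7 had 291.5 in IAA-treated roots and 26.2 in control roots, 11.1-fold higher (8.14 to 15.4). PIN3 had 123.9 in IAA-treated and 29.5 in control roots, 4.21-fold higher. PIN2, the carrier of epidermis and cortex, had 66.3 in IAA-treated and 68.8 in control roots, a ratio of 0.964 (0.755 to 1.24). A link between the ratios of the PIN genes and those of the kinases was not tested.

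**Figure D5:**
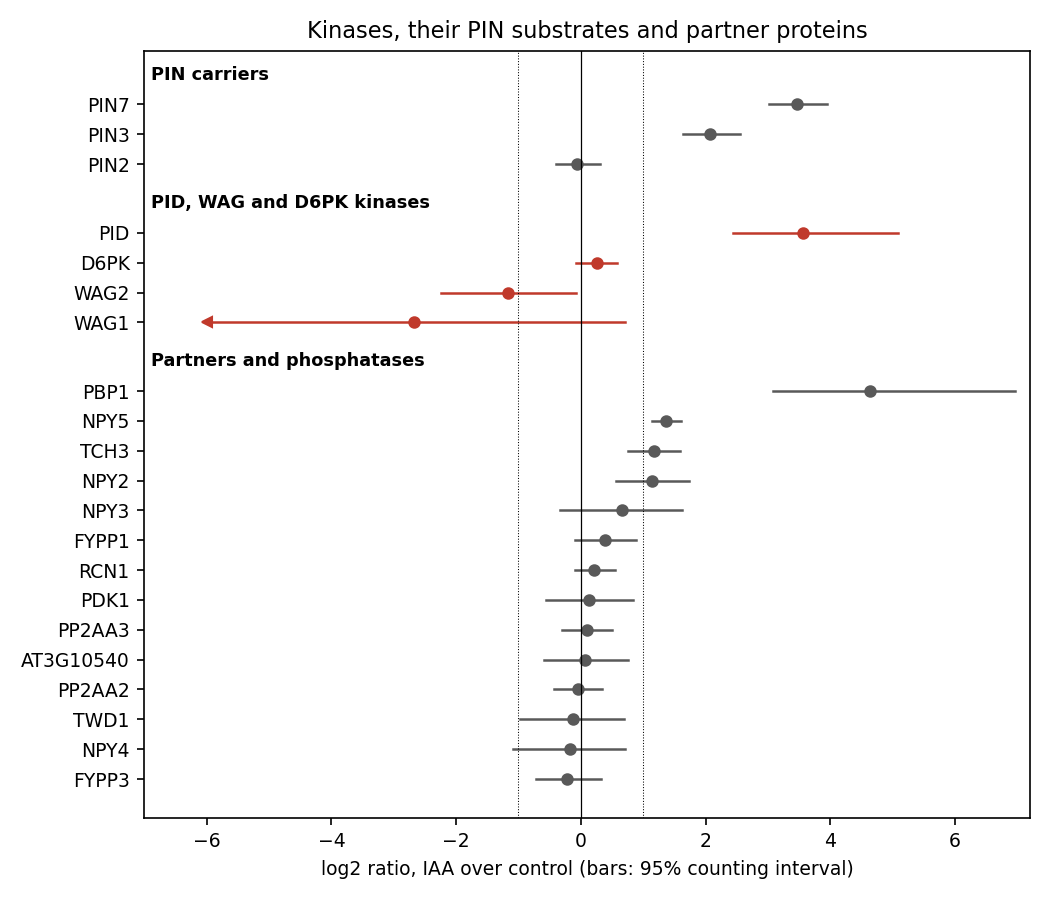
Log2 ratio of the IAA mean over the control mean for PIN carriers, the 4 kinases (red) and partner proteins and phosphatases, with bars for the 95% counting interval and dotted lines at 2-fold. PBP1 at 4.64, PID at 3.57 and PIN7 at 3.47 are the highest, whereas D6PK, WAG2, WAG1, PIN2, TWD1, PDK1 and the phosphatase subunits lie at or below 0.39.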

How the data were processed

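SOLiD reads of ribosome-depleted root RNA were mapped by the authors to TAIR10 with SHRiMP, and reads mapped to 1 place were counted per gene with HTSeq. The signal values used are, in the authors' deposited table, 1 mean read count per gene and group, scaled by the authors with DESeq. The table also holds the authors' fold changes, their log2 and p-values, which were not used. The labels give 3 samples per group. The members and gene lists were chosen with earlier results of these data known.

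The ratio is the IAA mean over the control mean, with no pseudocount. Reads behind a mean were recovered from the steps of values under 3, and exact (Clopper-Pearson) 95% intervals of the ratio were computed from them. All 3792 such values in IAA-treated roots and all 3506 in control roots lie on the steps, which were fitted to them, and 14.8% and 6.64% of evenly spaced values would. On data simulated with counting error alone, 97.2% of the intervals covered the simulated ratio. The simulation held no difference between samples and no PCR duplicates, so it checks the calculation and not those sources of error. Counts of genes used an average of both means of at least 10. Gene models, upstream sequences and 60-base words came from TAIR10.1 (NCBI RefSeq), whereas the authors' build was TAIR10. All 10 genes were named, and of each further list the genes at least 2-fold apart with an average of at least 10, up to 4 per direction, or any gene in lists of up to 12. Other ABCB and partner genes were named outside this rule: ABCB3, ABCB5, ABCB16, ABCB17, ABCB18, ABCB21 and ABCB22. So were NPY1, NPY3, NPY4, RCN1, PP2AA2, FYPP1, PDK1 and TWD1. Of loci listed, 1 ABCB and 4 kinase loci were dropped because their annotation does not name the family. A further listed gene is not reported here. Alternatives were a pseudocount of 1 or 0.5, 3 other scalings, 1.5-fold and 3-fold, other filters and either step alone. The software was Python 3.11.15 with matplotlib 3.10.9, scipy 1.17.1, pandas 2.3.3 and numpy 2.4.6.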

Additional observations from a re-analysis of the deposited data

How the results depend on the processing

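The log2 ratios of the 10 genes kept their sign with a pseudocount of 1 or 0.5 and with 3 other scalings. This could not come out otherwise. A pseudocount added to both means cannot change a sign, and the scalings shifted all log2 ratios by at most 0.07. The log2 ratio closest to equality was 0.26 (D6PK). All 50 values lay inside the counting interval of the ratio as deposited, but that of WAG1 is very wide. Its log2 ratio went from -2.67 to -1.29 with a pseudocount of 1. Of the 7 genes with an average of at least 10, the count at least 2-fold higher was 1 and became 4 at 1.5-fold, and the count at least 2-fold lower was 1 and became 0 at 3-fold. Over all 11139 such genes, 23.6% were at least 1.5-fold higher, and the share at 3-fold was not computed. Without a filter on low means, an alternative chosen after seeing the data, 3 of the 10 were at least 2-fold lower, as WAG1 and WAG2 joined PILS2. WAG1 counts here on about 1 read in IAA-treated and 4 in control roots. The share of all genes at least 2-fold lower without the filter was not computed apart from that for both directions, so the 3 have no like background. The count at least 2-fold higher stayed at 1. The share of all genes at least 2-fold higher or lower was 24.1% with the filter, 39.1% with no filter and 21.0% with an average of at least 50. No paired analysis was possible because the values used are 1 mean per group, and for the same reason no sample could be left out. Depth limits PILS3, WAG1 and WAG2, with at most 22 reads in either group.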
